A study of Mus musculus with 8 samples.

Results

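The genes described here encode subunits of the respiratory chain (complexes I to IV) and of ATP synthase (complex V) in mouse liver. They were chosen by gene symbol alone, from the symbols of the Nduf, Sdh, Uqcr, Cox and Atp5 families, with the probe set of the highest mean over all 8 arrays kept for each symbol. This gave 79 of 22180 named genes: 31 of complex I, 4 of complex II, 7 of complex III, 19 of complex IV, 17 of complex V, and the pseudogene Atp5c1-ps, which is left out of the counts below, so that 78 subunit genes remained. Ndufa4 and its relative Ndufa4l2 carry complex I names but were counted with complex IV, of which Ndufa4 is now known to be a subunit. RNA of snap-frozen liver from wild-type C57BL/6 mice was measured on 8 whole-transcript arrays, 4 from mice given rilpivirine and 4 from controls. Rilpivirine, an HIV drug of the non-nucleoside class that blocks reverse transcriptase, was given by mouth every day at doses matched to human use. Fatty liver disease without alcohol is named for all 8 samples, the treated ones with the drug added to it, and the animals' food is described as normal chow or a diet of 60% fat over 3 months without a statement of which sample had which. Whether every sample came from a mouse of its own is not stated; the spread behind each p-value is that among samples of a group and may be technical.

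The respiratory chain sits in the inner mitochondrial membrane. Complex I oxidizes NADH and complex II oxidizes succinate; both pass electrons through coenzyme Q to complex III, then by cytochrome c to complex IV, which reduces oxygen, and the proton gradient built on the way drives ATP synthase. Most subunits are encoded in the nucleus and their transcription depends on factors such as NRF1, ETS family members (GABP), YY1 and the estrogen-related receptors with their PGC-1 coactivators, while a small catalytic set is encoded in mitochondrial DNA. In hepatocytes this machinery takes up the electrons released by fat oxidation.

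The regulatory context of these genes is shown first, since the subunits are known for shared promoter elements. Promoters from RefSeq (build GRCm38.p6), covering 250 bases before to 50 bases after the start site, were matched for 64 of the 78 genes. 4 short motifs were searched on both strands: GCGCATG for NRF1, CCGGAAG for ETS factors, ATGGCGG for YY1 and AAGGTCA for estrogen-related receptors. The NRF1 letters were found in 13 of the 64 promoters (20.3%, against 4.04% of 27025 promoters of the same length), the ETS letters in 16 (25% against 9.12%), the YY1 letters in 8 (12.5% against 4.19%) and the receptor letters in 6 (9.38% against 4.66%). A total of 33 subunit promoters held at least 1 of these motifs and 6 held both the NRF1 and the ETS letters. The bases before the start site are printed 5′ to 3′ for 6 genes, with motif matches in capitals: Cox6a1 (chr5:115348959-115349208, minus strand) and Ndufb6 (chr4:40279422-40279671, minus strand) as examples that hold both, Ndufs5 (chr4:123718187-123718436, minus strand) and Ndufa1 (chrX:37191239-37191488, minus strand) as the members with the smallest p-values, and Cox7a2 (chr9:79759854-79760103, minus strand) and Cox7a1 (chr7:30183921-30184170, plus strand) as a pair of alternative forms of the same complex IV subunit.
Cox6a1: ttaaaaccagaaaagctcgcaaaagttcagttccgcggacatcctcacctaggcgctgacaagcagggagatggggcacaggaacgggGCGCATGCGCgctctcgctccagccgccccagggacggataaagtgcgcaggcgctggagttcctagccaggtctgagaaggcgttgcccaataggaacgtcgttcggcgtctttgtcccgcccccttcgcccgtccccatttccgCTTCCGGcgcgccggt
Ndufb6: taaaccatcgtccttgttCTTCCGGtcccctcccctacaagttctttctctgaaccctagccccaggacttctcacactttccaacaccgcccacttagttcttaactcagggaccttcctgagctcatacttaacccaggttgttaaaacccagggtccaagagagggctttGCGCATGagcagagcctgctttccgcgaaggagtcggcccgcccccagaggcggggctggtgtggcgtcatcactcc
Ndufs5: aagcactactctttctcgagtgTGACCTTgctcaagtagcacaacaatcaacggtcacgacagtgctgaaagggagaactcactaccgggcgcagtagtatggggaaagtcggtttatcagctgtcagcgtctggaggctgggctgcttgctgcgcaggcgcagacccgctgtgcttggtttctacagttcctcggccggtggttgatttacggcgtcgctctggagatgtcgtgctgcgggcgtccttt
Ndufa1: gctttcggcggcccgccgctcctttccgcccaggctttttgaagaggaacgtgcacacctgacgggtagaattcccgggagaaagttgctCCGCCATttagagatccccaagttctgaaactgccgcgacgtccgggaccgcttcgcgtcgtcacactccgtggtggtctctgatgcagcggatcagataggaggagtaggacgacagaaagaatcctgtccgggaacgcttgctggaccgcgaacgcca
Cox7a2: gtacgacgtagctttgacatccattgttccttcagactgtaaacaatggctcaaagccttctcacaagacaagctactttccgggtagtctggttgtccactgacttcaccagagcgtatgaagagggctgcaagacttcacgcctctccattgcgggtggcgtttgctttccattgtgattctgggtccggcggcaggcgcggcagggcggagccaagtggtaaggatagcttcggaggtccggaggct
Cox7a1: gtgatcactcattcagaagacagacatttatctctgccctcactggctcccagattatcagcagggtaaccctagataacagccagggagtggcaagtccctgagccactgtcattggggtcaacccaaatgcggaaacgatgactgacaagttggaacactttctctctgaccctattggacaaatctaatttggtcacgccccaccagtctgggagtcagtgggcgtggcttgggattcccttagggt
Cox6a1 held the NRF1 letters on both strands in an overlapping match that began 162 bases before the start site, and the ETS letters 16 bases before it. Ndufs5 held only the receptor letters, 228 bases before the start site, and Ndufa1 only the YY1 letters, 160 bases before it. No match of the 4 was found in the windows of Cox7a2 or Cox7a1. The 13 genes with the NRF1 letters had a median log2 difference (rilpivirine minus control) of -0.15, and the 51 without them one of -0.10; for the ETS letters the medians were -0.15 and -0.12, for YY1 -0.14 and -0.13, and for the receptor letters -0.17 and -0.13. All genes with a motif had a difference below 0 (13 for NRF1, 16 for ETS, 8 for YY1 and 6 for the receptors). Without the motif, 41 of 51, 38 of 48, 46 of 56 and 48 of 58 did, in the same order. None of the genes with a motif was among the tissue-restricted forms of complex IV, described below, which were all above 0. Of the 70 subunit genes other than those forms 64 were below 0 (91.4%), and of all genes above the 75th percentile of mean level 69.4% were. The difference between genes with and without a motif was not tested.

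Before the subunits are described, the arrays themselves need a word. Rilpivirine replicate 2 stood apart, with a mean correlation of 0.965 to the other arrays against 0.976 to 0.981, and a narrower spread of values (interquartile range 2.44 log2 against 2.61 to 2.78). Small nucleolar RNAs deviated by 0.49 log2 in this array and by 0.26, 0.02 and -0.20 in rilpivirine replicates 1, 3 and 4, against -0.60 to 0.27 in controls. In rilpivirine replicate 2 dim genes lay higher and bright genes lower: genes below the 50th percentile of mean level deviated by 0.12 log2 from the mean of 8 arrays, and genes above the 75th percentile by -0.27. Of the 78 subunit genes 61 lay above the 75th percentile. The hepatocyte markers Alb, Ttr and Apoa1 measured 11.63 to 13.37 log2 in all 8 arrays, as the liver label says. Another marker of that list, Ass1, measured 4.32 to 5.39 log2. Among other liver cells, 6 of 7 markers of sinusoidal endothelium were higher with rilpivirine (median 0.36). Of monocytes and other macrophages 7 of 7 were lower (median -0.35). Rilpivirine replicate 4 differed from the other treated arrays in both lists. Its mean deviations of -0.15 and 0.36 lay within the control ranges (-0.35 to 0.02 and -0.01 to 0.50). Lower markers were 6 of 7 for Kupffer cells, 5 of 7 for stellate cells, 1 of 6 for lymphocytes and 2 of 4 for cholangiocytes. Of hepatocyte markers 5 of 8 were lower (median -0.09). The part of these cells in the subunit values was not tested. In bulk liver RNA, fewer cells of a type and less RNA per cell cannot be told apart.

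Subunit transcripts lay lower with rilpivirine in most genes, by small amounts, and none passed the test. Of 78 subunit genes 64 had a difference below 0 (82.1%) and 14 above it, with a median log2 difference of -0.13. The same share was 56.9% among all 16635 genes tested, with a median of -0.03, and 69.4% among genes above the 75th percentile, with a median of -0.09. With limma and Benjamini-Hochberg adjustment, 0 of the 74 subunit genes that passed the filter on low values had an adjusted p under 0.05, against 0% of all genes, and the smallest of their adjusted p-values was 0.743. Without adjustment, 3 subunit genes had a p under 0.05, where 5.21% of all genes tested did. All 3 were on the lower side (3.21% of all genes) and 0 on the higher side (2% of all genes). The 4 arrays of each group did not overlap in Ndufs5 and Cox7a2, which were lower, and in 0 genes on the higher side; over all genes tested these shares were 1.73% and 1.3%. The counts of members past these rules were thus near the background.

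**Figure D1:**
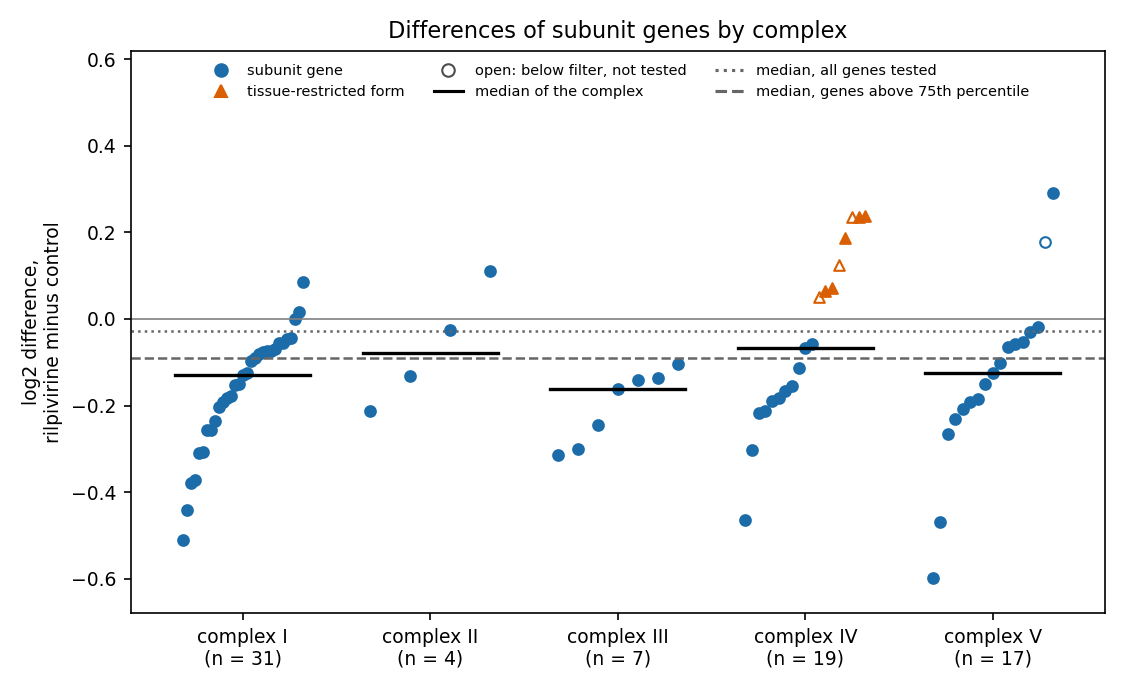
Each point is a subunit gene, with its log2 difference (rilpivirine minus control, 4 arrays each) on the vertical axis and its complex on the horizontal axis; black bars are medians of the complexes, the dotted line is the median of all genes tested (-0.03) and the dashed line that of genes above the 75th percentile of level (-0.09). Complex III lies wholly below 0 (-0.31 to -0.10), whereas the 8 genes counted as tissue-restricted forms in complex IV (triangles) lie above it. Open symbols are genes below the filter.

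Rilpivirine replicate 2 weighed on the size of the subunit differences. It was the lowest of the 8 arrays in 41 of 78 subunit genes (52.6%, against 30.2% of all genes tested), and rilpivirine replicate 3 was the lowest in 19 (24.4% against 13.5%). The mean deviation of the 78 genes was -0.26 in rilpivirine replicate 2, -0.08 in replicate 3, and 0.04 in replicates 1 and 4, against -0.02 to 0.14 in controls, so rilpivirine replicates 1 and 4 lay within the range of the controls. Without rilpivirine replicate 2 the median was -0.06 and 59 of 78 genes were below 0. Of all genes tested 53.2% were then below 0, and of genes above the 75th percentile 55.2% (median -0.018). After a further quantile normalization, which gives every array the same distribution of values, the median was -0.07 with 54 of 78 genes below 0. The share was then 51.2% of all genes and 55.2% of genes above the 75th percentile (median -0.022). Without rilpivirine replicates 1 and 2, both high in small nucleolar RNAs, the median was -0.08 with 59 genes below 0, and with the small nucleolar RNA deviation as a covariate -0.09 with 64 below 0; the median of genes above the 75th percentile was then 0.003 and -0.02. Values of subunit genes also scattered more with rilpivirine, with a median SD of 0.26 against 0.15 in controls, and a median SD of 0.18 without replicate 2; the SD was larger with rilpivirine in 62 of 78 subunit genes (79.5%) and in 69.8% of all genes. The part of this array in the lower subunit levels was not tested beyond these values.

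**Figure D2:**
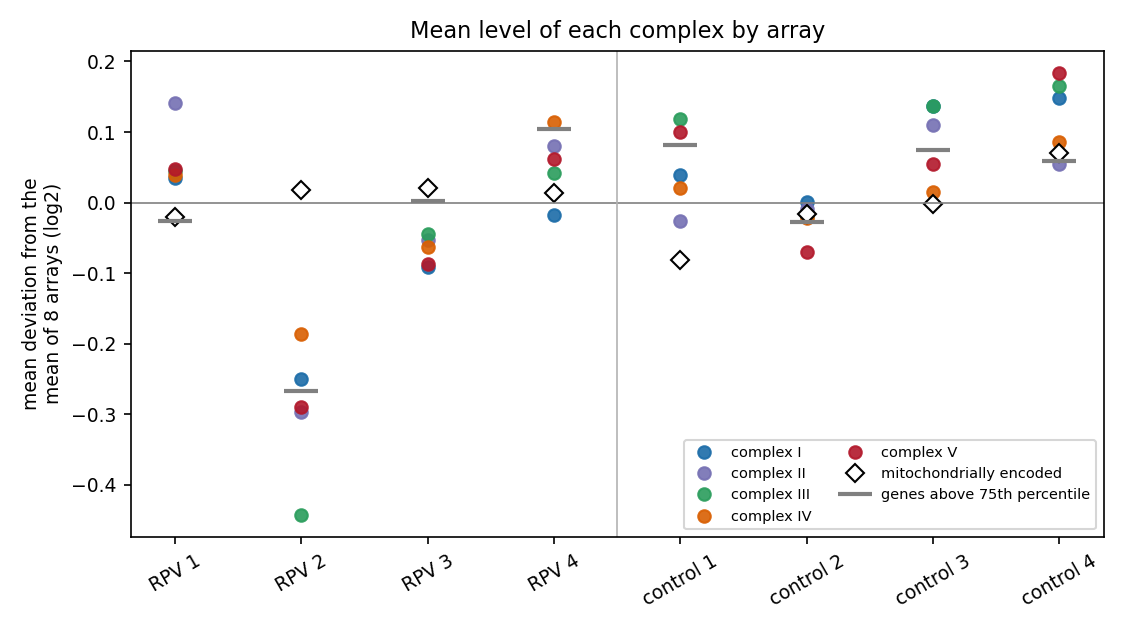
For each of the 8 arrays (horizontal axis; RPV is rilpivirine), points give the mean deviation of each complex from its mean over 8 arrays, on the log2 scale; diamonds are the mitochondrially encoded subunits and grey bars the genes above the 75th percentile of level. In rilpivirine replicate 2 the complexes lie between -0.44 and -0.19, while the mitochondrially encoded subunits are at 0.02.

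Complex I, the entry point for electrons of NADH, had 28 of 31 genes below 0 and 3 above, with a median of -0.13; leaving out 1 array at a time gave medians of -0.17 to -0.07, the last of these without rilpivirine replicate 2. The 6 measured core subunits that carry the flavin and iron-sulfur clusters or form the coenzyme Q site had a median of -0.07, and the 25 accessory subunits one of -0.15. Ndufs5, an accessory subunit of the intermembrane space side, measured 3.28, 3.50, 3.50 and 3.41 log2 with rilpivirine and 3.90, 4.09, 3.79 and 3.95 in controls. Each treated array was lower than each control array, and the difference was -0.51 ± 0.11 (SE; unadjusted p = 0.00097, adjusted p = 0.743 in limma), a 1.43-fold lower level. Leaving out rilpivirine replicate 2 gave -0.54, and a further quantile normalization gave -0.52. Ndufs5 was the dimmest of the complex I genes, of which the 30 others lay above the 50th percentile of mean level. With the filter set at that percentile it was not tested. A brighter probe set that the annotation gives to both Ndufs5 and the pseudogene Ndufs5-ps had a difference of -0.53, with overlapping groups (5.79 to 6.94 log2 with rilpivirine, 6.66 to 7.07 in controls). Signal of the gene and of its copy cannot be told apart on such a probe set.

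Ndufa1, a small X-linked accessory subunit needed to build the membrane arm, measured 7.27, 6.95, 7.24 and 7.47 log2 with rilpivirine and 7.78, 7.47, 7.68 and 7.77 in controls. Rilpivirine replicate 4 and control replicate 2 met at 7.47, and the difference was -0.44 ± 0.14 (SE; unadjusted p = 0.00813, adjusted p = 0.813 in limma); it was -0.35 without rilpivirine replicate 2. Next in size were Ndufv2, a core subunit with an iron-sulfur cluster, and Ndufs4, an accessory subunit whose loss causes severe mitochondrial disease. Ndufs4 measured 6.66, 6.02, 7.14 and 7.14 log2 with rilpivirine and 6.84 to 7.29 in controls, with replicate 2 far below the rest; its difference was -0.37, and -0.13 without that array. Ndufv2 had a difference of -0.38 ± 0.22 (SE), and -0.20 without replicate 2. At the other end stood Ndufv1, the flavin subunit that first accepts electrons, with 8.37 ± 0.20 log2 (SD, n = 4) with rilpivirine and 8.28 ± 0.14 in controls (SD, n = 4), a difference of 0.09 ± 0.13 (SE). The 2 other genes above 0 were the accessory subunits Ndufa3 and Ndufv3, with differences of at most 0.02.

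Complex II, the succinate dehydrogenase shared with the citric acid cycle, had 3 of its 4 genes below 0 and a median of -0.08, close to that of all genes above the 75th percentile (-0.09). Sdha, the flavin subunit, measured 10.07, 9.88, 10.07 and 10.26 log2 with rilpivirine with all controls between the lowest treated array and the other 3 (control mean 9.96), a difference of 0.11 ± 0.11 (SE). Sdhb, the iron-sulfur subunit, measured 8.70, 8.18, 8.16 and 8.54 log2 with rilpivirine and 8.55 to 8.68 in controls. Its treated arrays lay on both sides of the controls, and the difference was -0.21 ± 0.14 (SE; unadjusted p = 0.158 in limma). The membrane anchors Sdhc and Sdhd had differences of -0.02 and -0.13. Without rilpivirine replicate 2 the median of complex II was 0.03.

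Complex III, which passes electrons from coenzyme Q to cytochrome c, had all 7 of its genes chosen by symbol below 0, with a median of -0.16. The core proteins Uqcrc1 and Uqcrc2 had differences of -0.14 and -0.10, and the small subunits Uqcrb, Uqcr11, Uqcrh and Uqcrq differences of -0.30 to -0.14. Uqcrq, needed near the ubiquinone-binding site, measured 5.84, 5.10, 5.43 and 5.90 log2 with rilpivirine and 5.79 to 5.95 in controls; rilpivirine replicates 1 and 4 lay within the control range and the difference was -0.30 ± 0.17 (SE; unadjusted p = 0.107 in limma). Uqcrh, the hinge protein next to cytochrome c1, had a difference of -0.25 ± 0.15 (SE). The Rieske iron-sulfur protein Uqcrfs1 measured 6.20, 4.96, 6.72 and 6.29 log2 with rilpivirine and 6.14 to 6.52 in controls. Its lowest and highest values both came from treated arrays, and its difference of -0.31 ± 0.30 (SE) became 0.05 without replicate 2. Complex III kept a median of -0.14 without that array, with 6 or 7 of its genes below 0 whichever array was left out.

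**Figure D3:**
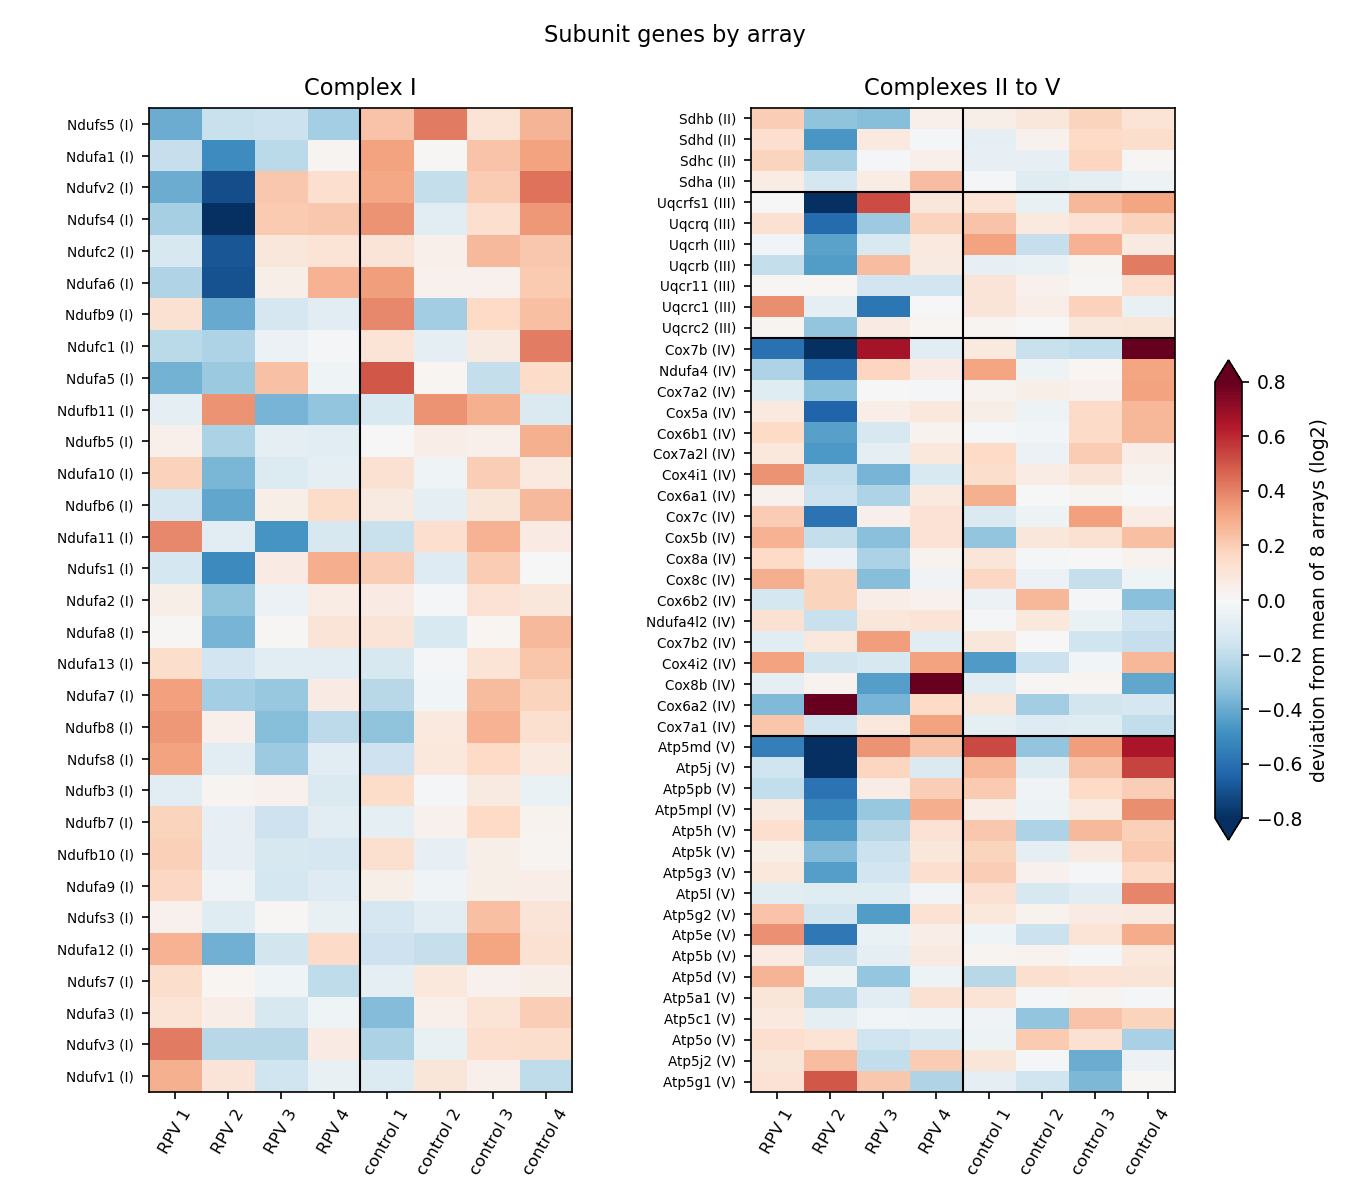
Colours give the deviation of each of the 78 subunit genes from its own mean over 8 arrays (log2; scale cut at 0.8 on either side), with arrays in columns (RPV is rilpivirine), complex I in the left panel and complexes II to V in the right, genes ordered by their difference within a complex. The column of rilpivirine replicate 2 is the lowest of the 8 in 41 genes, and rilpivirine replicate 1 is the highest in 22 genes.

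In complex IV, cytochrome c oxidase, the sign of the difference went with the form of the subunit, though the arrays of the groups overlapped. Several of its subunits exist in a form made in liver and most tissues and in another restricted to heart, muscle, brown fat, lung or testis. Ndufa4l2, the relative of Ndufa4, is not a form of 1 such tissue but was counted with the restricted forms. The 10 genes of liver forms (Cox4i1, Cox5a, Cox5b, Cox6a1, Cox6b1, Cox7a2, Cox7b, Cox7c, Cox8a and Ndufa4) were all below 0, with a median of -0.18, and the 8 genes of restricted forms (Cox4i2, Cox6a2, Cox6b2, Cox7a1, Cox7b2, Cox8b, Cox8c and Ndufa4l2) were all above 0, with a median of 0.16. The mean deviation of the liver forms was 0.03, -0.41, -0.04 and 0.03 in rilpivirine replicates 1 to 4, against -0.01 to 0.28 in controls. For the restricted forms it was 0.04, 0.13, -0.09 and 0.22, against -0.15 to -0.03 in controls. Leaving out rilpivirine replicate 2 gave medians of -0.10 and 0.13, with Cox7c then above 0 (0.06) and Cox6a2 below it (-0.07). A further quantile normalization gave medians of -0.12 and 0.13. The restricted forms were dim: 3 of the 8 were below the filter and 0 lay above the 75th percentile, and genes below the 50th percentile as a whole had a median of 0.04 with 39.0% of them below 0. None of the 18 genes passed the adjusted test, and the sorting into forms was made with the values known.

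Cox7a2, the liver form of subunit 7a, measured 8.11, 7.88, 8.20 and 8.19 log2 in treated arrays and 8.23, 8.25, 8.24 and 8.53 in controls. The groups did not overlap but the nearest arrays differed by little, and the difference was -0.22 ± 0.12 (SE; unadjusted p = 0.107 in limma). Cox7a1, its heart and muscle form, measured 4.41, 4.03, 4.27 and 4.51 log2 with rilpivirine and 4.11, 4.08, 4.09 and 3.99 in controls; replicates 1, 3 and 4 of the treated arrays were above all controls, and the difference was 0.24 ± 0.13 (SE; unadjusted p = 0.0859), or 0.17 without rilpivirine replicate 4. Cox8b, the heart, muscle and brown fat form of subunit 8, measured 3.17 log2 in rilpivirine replicate 4 and 1.78 to 2.24 in the other 7 arrays, a difference of 0.24 that became -0.04 without that array; its liver form Cox8a had a difference of -0.06 ± 0.12 (SE). Cox6a2, the muscle form of subunit 6a, measured 4.54 log2 in rilpivirine replicate 2 and 3.13 to 3.66 in the other 7 arrays, and its difference of 0.24 became -0.07 without it; Cox6a1 had a difference of -0.15 ± 0.12 (SE).

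The remaining pairs were close to their spread. Cox4i1 had a difference of -0.17 ± 0.15 (SE) and its lung form Cox4i2 one of 0.19 ± 0.18 (SE). Cox6b1 had one of -0.19 ± 0.15 (SE) and its testis form Cox6b2 one of 0.06 ± 0.14 (SE). Ndufa4 had one of -0.30 ± 0.18 (SE) and Ndufa4l2, which is induced by hypoxia in many cells, one of 0.07 ± 0.12 (SE). Cox7b, whose testis form Cox7b2 was below the filter, lay between 5.28 and 6.86 log2 in treated arrays and between 6.00 and 7.42 in controls, the widest range in the complex, and its difference of -0.47 had an SE of 0.37. Cox7a2l, which helps join complexes III and IV into supercomplexes and of which C57BL/6 mice carry a shortened form, had a difference of -0.18 ± 0.14 (SE).

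Some markers of other tissues were high in the same single arrays as Cox8b or Cox6a2. Ucp1, the uncoupling protein that defines brown fat, measured 5.57 log2 in rilpivirine replicate 4 and 2.71 to 3.11 in the other 7 arrays, and Cidea, also of brown fat, 3.86 in that array and 2.50 to 3.14 elsewhere. Of the 5 brown fat markers measured 2 were higher and 3 lower with rilpivirine, and the mean deviation of the list was 0.54 in rilpivirine replicate 4, where the 3 other treated arrays had -0.14 to -0.08 and the controls -0.15 to 0.12; Elovl3 and Ppara of that list are also made by hepatocytes. Of 5 white fat markers 2 were higher and 3 lower, and the list deviated by 0.85 in the same array, -0.22 in each of the other treated arrays and -0.13 to -0.003 in controls; Retn measured 5.38 log2 there and 2.96 to 3.32 elsewhere, while Adipoq measured 2.34 to 2.85 in all arrays, near the filter value of 2.72. For skeletal muscle, 9 of 10 markers lay above 0 and 1 below (median 0.17); their mean deviation was 0.32 in rilpivirine replicate 2, -0.17 in replicate 4, 0.12 and 0.10 in replicates 1 and 3, and -0.19 to 0.04 in controls. Among treated arrays Cox7a1 was lowest in replicate 2 (4.03 log2), where the muscle list was highest. It was highest in replicate 4 (4.51), where that list was lowest. The part of fat or muscle RNA in the values of Cox7a1, Cox8b and Cox6a2 was not tested beyond the values without these arrays.

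**Figure D4:**
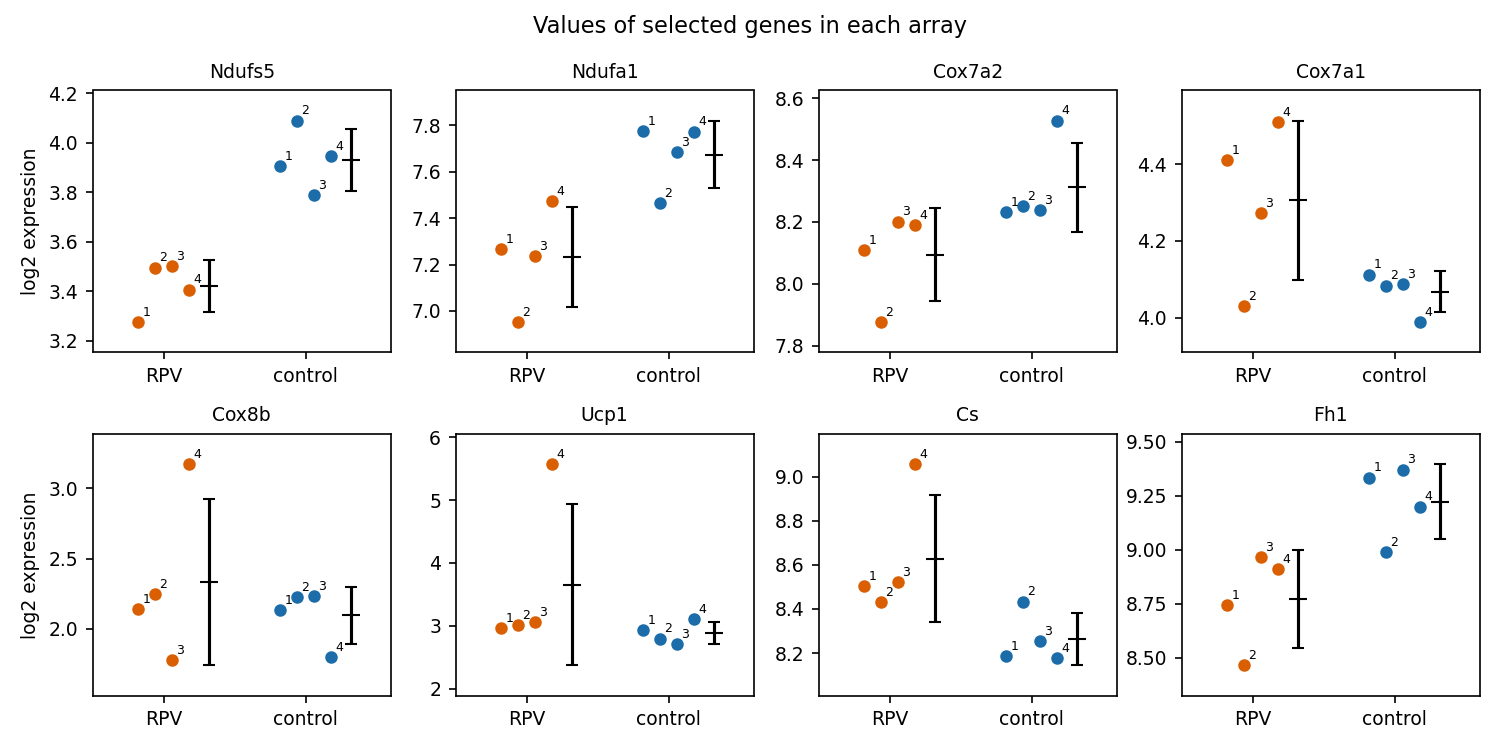
Log2 expression of 8 genes, each panel with its own vertical axis; points are single arrays labelled with their replicate number (RPV is rilpivirine), and bars show the mean and SD of 4 arrays. Ndufs5, Cox7a2 and Fh1 have groups that do not overlap, whereas Cox8b and Ucp1 stand out in rilpivirine replicate 4 alone (3.17 and 5.57).

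ATP synthase, complex V, had 15 of 17 genes below 0 and 2 above, with a median of -0.13. The 5 subunits of the F1 head and central stalk, which carry the catalytic sites, had differences of -0.10 to -0.03: Atp5a1 and Atp5b, the alpha and beta subunits, measured 10.60 to 10.96 and 10.99 to 11.25 log2 with rilpivirine, with differences of -0.05 ± 0.12 and -0.06 ± 0.11 (SE). The 4 subunits of the peripheral stalk, which holds the head still, had a median of -0.24, with Atp5pb at -0.27, Atp5h at -0.21 and Atp5o, which ties the stalk to the head, at -0.02. Atp5j, coupling factor 6 of that stalk, measured 6.14, 5.46, 6.47 and 6.18 log2 with rilpivirine and 6.56, 6.20, 6.53 and 6.84 in controls. Its difference was -0.47 ± 0.21 (SE; unadjusted p = 0.0476, adjusted p = 0.890 in limma), and -0.27 without rilpivirine replicate 2, with an unadjusted p of 0.126. Atp5md, a small membrane subunit that helps pair ATP synthases, had the lowest difference of all members, -0.60 ± 0.33 (SE), from 8.69, 7.99, 9.60 and 9.46 log2 with rilpivirine and 9.76, 8.92, 9.57 and 9.89 in controls. Rilpivirine replicates 3 and 4 lay among the controls, and the difference was -0.29 without replicate 2.

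The c ring, the rotor that protons turn, is encoded by several genes for the same mature protein, and these genes differed in sign. Atp5g1 measured 4.66, 5.05, 4.77 and 4.31 log2 with rilpivirine and 4.48, 4.39, 4.19 and 4.56 in controls, the highest difference of all members at 0.29 ± 0.16 (SE; unadjusted p = 0.0967 in limma). It was 0.17 without rilpivirine replicate 2 and 0.42 without replicate 4. Atp5g2 and Atp5g3 had differences of -0.13 ± 0.15 and -0.18 ± 0.14 (SE). Atp5j2, a membrane subunit below the filter, had a difference of 0.18, and the pseudogene Atp5c1-ps, also below it, one of 0.14.

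Further probe sets bore on a few members. A second probe set was present for 9 subunit genes, of which 5 had a difference below 0. For Atp5d, the delta subunit of the central stalk, the brighter probe set had a difference of -0.06 and the second one of 0.72 (5.88 to 6.63 log2 with rilpivirine, 5.01 to 6.01 in controls), so that its probe sets disagreed. Another 10 probe sets carried several symbols of which at least 1 belongs to these families, and 8 of them were below 0; both probe sets shared by Cox6c and Gm6265 were among these, at -0.31 and -0.53.

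The subunits encoded in mitochondrial DNA had differences near 0. Of 13 such genes 10 had a probe set with a single symbol; 8 were above 0 and 2 below, with a median of 0.02 and a range of -0.07 to 0.05. Their mean deviation ran from -0.02 to 0.02 in treated arrays and from -0.08 to 0.07 in controls, and was 0.02 in rilpivirine replicate 2. ND4, a proton-pumping subunit of complex I, had the smallest p of these, with 13.16 ± 0.03 log2 (SD, n = 4) with rilpivirine and 13.11 ± 0.05 in controls (SD, n = 4), a difference of 0.05 (95% confidence interval -0.17 to 0.27; unadjusted p = 0.629 in limma) that was -0.03 after a further quantile normalization. These values lay near the top of the scale, where the highest value on any array was 13.4 log2. The difference between nuclear and mitochondrial genes was not tested.

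Other genes of the pathway were mostly below 0 as well, and 0 passed the adjusted test. With all arrays, 56.9% of all genes tested were below 0, and 69.4% of those above the 75th percentile. An unadjusted p under 0.05 on the lower side was found in 3.21% of all genes tested in limma. Without rilpivirine replicate 2 the shares below 0 were 53.2% and 55.2%, and after a further quantile normalization 51.2% and 55.2%. The counts of these lists are to be read against the shares of the same setting. Rilpivirine replicate 2 deviated by -0.39 to -0.26 in the lists of ribosomal proteins and of assembly factors of complexes I to IV, and by -0.19 in that of ATP synthase. Of 68 mitochondrial ribosomal protein genes 59 were below 0 (median -0.09), and 44 without that array (median -0.05). Among them 2 had an unadjusted p under 0.05, both lower; the smaller p was that of Mrpl54 (-0.46 ± 0.18, SE).

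Assembly factors help build each complex. For complex I, 13 of 16 were below 0 (median -0.12), and 11 without rilpivirine replicate 2 (median -0.01); the smallest p was that of Ndufaf6 (-0.25 ± 0.13, SE). For complexes II and III, 9 of 10 were below 0 (median -0.14), and 8 without that array (median -0.03); the smallest p was that of Sdhaf3 (-0.31 ± 0.15, SE). For complex IV, 12 of 17 measured factors were below 0 (median -0.11), and 9 without it (median -0.001); 4 had an unadjusted p under 0.05, all lower. Cox17, which delivers copper to the complex, had the smallest p of these, with 5.75, 5.25, 5.71 and 5.69 log2 with rilpivirine against 6.15, 5.70, 5.96 and 6.20 in controls, a difference of -0.40 ± 0.16 (SE), or -0.29 without rilpivirine replicate 2. For ATP synthase, 4 of 5 factors were below 0 (median -0.01), and 3 without that array (median -0.08), while a further quantile normalization left 2 below 0 (median 0.06); 2 of the 5 had an unadjusted p under 0.05, both lower. Among these, Atp23 had groups that did not overlap (highest treated array 4.97 log2, control mean 5.10). Its difference was -0.42 ± 0.13 (SE, adjusted p = 0.839 in limma).

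Regulators of mitochondrial biogenesis had 11 of 14 genes below 0, with a median of -0.15; rilpivirine replicate 2 deviated by -0.37 over this list, and the median was -0.05 without it, with 10 genes below 0. Ppargc1b, which encodes the coactivator PGC-1 beta, measured 4.90, 4.78, 4.90 and 4.56 log2 with rilpivirine and 4.94, 5.07, 5.56 and 5.32 in controls. The groups did not overlap, and the difference was -0.44 ± 0.15 (SE; unadjusted p = 0.0156, adjusted p = 0.855 in limma) with every array and -0.44 without rilpivirine replicate 2. Ppargc1a, its better known relative PGC-1 alpha, measured 5.75, 4.73, 6.40 and 5.28 log2 with rilpivirine and 6.18, 5.64, 7.02 and 6.39 in controls, a difference of -0.77 ± 0.35 (SE; unadjusted p = 0.0527 in limma), or -0.50 without replicate 2. Tfam, which packs and transcribes mitochondrial DNA, had a difference of -0.22 ± 0.18 (SE).

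Enzymes of the citric acid cycle, which supply the chain with electrons, had 11 of 13 genes below 0 and a median of -0.20. Rilpivirine replicate 2 deviated by -0.41 over this list, and without it 8 of 13 were below 0 with a median of -0.04. Fh1, fumarate hydratase, which takes up the product of complex II, measured 8.74, 8.46, 8.97 and 8.91 log2 with rilpivirine and 9.33, 8.99, 9.37 and 9.20 in controls. Its groups did not overlap, and the difference was -0.45 ± 0.14 (SE; unadjusted p = 0.00945, adjusted p = 0.839 in limma) and -0.35 without rilpivirine replicate 2. Cs, citrate synthase, was singled out after its values were seen because it lay on the other side, at 8.50, 8.43, 8.52 and 9.06 log2 with rilpivirine and 8.18, 8.43, 8.25 and 8.18 in controls, a difference of 0.37 ± 0.15 (SE; unadjusted p = 0.0346 in limma). Its highest value was again in rilpivirine replicate 4, the array with the highest Ucp1, where the mean deviation of the citric acid cycle list was 0.21. Without that array the difference was 0.22. The part of brown fat RNA in the Cs values was not tested. The list of electron carriers and transporters also held Cyc1 (-0.17) of complex III and Ndufab1 (-0.21) of complex I, which the symbol rule left out. Among its 10 genes 8 were below 0 (median -0.18), and 6 without rilpivirine replicate 2 (median -0.08). Gpd2, which feeds electrons from glycerol phosphate into coenzyme Q, had the smallest p of these and was above 0, at 0.42 ± 0.16 (SE; unadjusted p = 0.0229 in limma) and 0.28 without rilpivirine replicate 4. Cycs, cytochrome c, measured 8.14, 8.05, 9.31 and 9.46 log2 with rilpivirine and 8.97 to 9.50 in controls, with replicates 1 and 2 below every control and replicates 3 and 4 among them, a difference of -0.45 ± 0.31 (SE).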

How the data were processed

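The values are log2 expression levels of 41345 probe sets on 8 arrays, as deposited by the authors, made with RMA (background correction, quantile normalization and probe summary); RMA and limma are named in the submitters' processing notes, with versions not given in the sources used here. Per the labels' protocols, Trizol was used for RNA extraction and 300 ng entered each labelling. RMA removes differences in total signal, so a change in total mRNA could not be seen. Probe sets with 1 platform symbol (23521; 1814 had several, 16010 none listed) were reduced to the brightest per symbol, giving 22180 genes. The 5545 genes whose mean fell below the 25th percentile (2.72 log2) were not tested, and medians cover all members. Differences were fitted over 16635 genes with limma 3.58.1 in R 4.3.3 (lmFit, eBayes, two-sided, Benjamini-Hochberg, threshold 0.05, 95% intervals), without covariates. The script was tested on simulated data. Members, lists, forms and motifs were chosen with earlier results of these data known; named genes were the 2 with the smallest p and the highest and lowest difference of each complex, the alternative forms, the smallest p of each other list, and Ppargc1a, Tfam and Cycs. A few more genes were named with their values known. Alternatives changed moderation, array weights, scaling, filter, probe sets, block and samples. The number of arrays limits the precision. Plots used matplotlib 3.10.9 (Python 3.11.15).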

Additional observations from a re-analysis of the deposited data

Results flagged for a closer look

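In 5 of the 90 sets of 4 arrays examined, an array lay far from the other 3 of its group; chance gives about 1 in 20. Uqcrc2 measured 8.78 log2 in rilpivirine replicate 2 and 9.11 to 9.16 in the rest of its group. Ndufa4l2 measured 3.81 log2 in that array against 4.08 to 4.11, and Cox17 measured 5.25 against 5.69 to 5.75. Among controls, Cox7a2 measured 8.53 log2 in replicate 4 and 8.23 to 8.25 in the others, and Cox6a1 measured 11.55 in replicate 1 and 11.26 to 11.28 in the others.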

How the results depend on the processing

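Each of the 18 alternatives left 0 subunit genes past the adjusted threshold, and 28 of 39 named genes kept their direction in all of them. Leaving out each array in turn, the median difference ran from -0.18 to -0.06 over all subunits, -0.17 to -0.07 for complex I, -0.14 to 0.03 for complex II, -0.28 to -0.14 for complex III, -0.17 to 0.018 for complex IV (0.018 without rilpivirine replicate 3, -0.17 without replicate 1) and -0.22 to -0.07 for complex V, with 56 to 67 subunit genes below 0. The 3 subunit genes on the lower side at an unadjusted p under 0.05 in limma became 2 to 8 without single arrays. There were 7 without rilpivirine replicate 3 or 4, and 8 without control replicate 2. The share of all genes tested, in either direction, moved as well. It was 5.21% with all arrays, 7.29% and 9.16% without rilpivirine replicates 3 and 4, 6.37% without control replicate 2 and 3.47% without control replicate 1. With the filter at the 50th percentile 1 subunit gene remained on the lower side (5.27% of all genes in either direction). The 0 on the higher side became 0 to 1 without single arrays. It became 1 with array weights, without rilpivirine replicates 1 and 2 together, or with a covariate for small nucleolar RNAs. Both of the latter settings were added after seeing the data. The replicate block gave 5 genes on the lower side. With it, 1071 of all genes tested had an unadjusted p under 0.05 in limma, against 867 without it. Same-numbered samples correlated at -0.25, 0.46, -0.09 and 0.07 in their deviations from the group means. Only rilpivirine replicate 2 correlated best with the control of its own number. So few values cannot decide whether the numbers pair the samples. Counting Ndufa4 and Ndufa4l2 with complex I, also added after seeing the data, gave medians of -0.13 and -0.07 for complexes I and IV. Signs turned without single arrays in Uqcrfs1 (-0.54 to 0.047, above 0 without rilpivirine replicate 2), Cox6a2 (-0.071 to 0.40, below 0 without the same array), Cox8a (-0.12 to 0.018) and Atp5g2 (-0.22 to 0.0027; both above 0 without rilpivirine replicate 3), Cox8b (-0.043 to 0.42, below 0 without rilpivirine replicate 4) and Cox6b2 (-0.037 to 0.16, below 0 without control replicate 4). They also turned in ND4 (-0.027) after quantile normalization, in Ndufv1 (-0.068), Uqcrfs1 (0.15), Cox7b (0.058), Tfam (0.047) and Cycs (0.20) without rilpivirine replicates 1 and 2 together, and in Ndufv1 (-0.0051) and Cox6b2 (-0.010) with the covariate; the cause was not tested. Dim genes such as Cox8b, Cox7b2 and Cox8c lie below the filter, where the arrays resolve little. Ndufs5 passed the filter but lay below the 50th percentile, so it was not tested with the filter set there.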
